A study of Arabidopsis thaliana with 12 samples.

Results

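Seedlings of the Arabidopsis thaliana mutant cost1 were compared with wild-type (WT) seedlings after 6 h of dehydration, with 3 RNA-seq libraries for each genotype, 6 of the 12 in the series. The libraries belong to the comparison by their labels, and every gene measured in them entered it. Plants of both genotypes were 10 days old, had grown upright on plates of MS medium, and were laid on a petri dish to dry. WT and cost1 seedlings that were not dehydrated, again 3 libraries each, served as control. The labels give the mutant only as cost1, without its allele or line, and the libraries are polyA RNA of seedlings, with no dissection of tissue stated.

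COST1 (AT2G45260) encodes a plant-specific protein of the DUF641 family, and the study's title ties it to a brake on autophagy, the pathway that carries cytoplasm to the vacuole for breakdown. In autophagy the ATG1 kinase complex and ATG9 start a membrane, lipid-bound ATG8 proteins grow it and hold cargo receptors, and the finished vesicle fuses with the vacuole. In drying plants the hormone abscisic acid (ABA) binds PYR/PYL receptors, which hold back clade A PP2C phosphatases and so free SnRK2 kinases to act on bZIP factors and their targets, among them dehydrins and other LEA proteins. Suberin, the polyester and wax barrier of root and wound tissues, is built from long-chain fatty acids that CYP86 hydroxylases, GPAT acyltransferases, ASFT and ABCG transporters process and export.

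Expected counts summed to between 6099412 and 6185114 in the 6 dehydrated libraries, and 21416 to 21556 genes were listed in each. Across genes, the closest pair of dehydrated libraries crossed the genotypes, WT replicate 1 with cost1 replicate 1 (Pearson's r = 0.982 on log2 CPM), and the most distant pair was cost1 replicates 1 and 2 (r = 0.945). On the first principal component of the 6 libraries, cost1 replicate 2 lay at 53.0 and the other 5 between -32.3 and 10.8. Because cost1 replicate 2 stood apart, the list medians that moved most with it are given with and without it. The labels do not say whether the 3 libraries of a group are separate plants or cultures. Unless another fit or method is named, p-values here come from 1 fit of the 12 libraries, 3 in each of 4 groups. The spread within groups that all p-values rest on may be technical only.

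In the dehydrated seedlings, 7 of 18809 tested genes passed an adjusted p of 0.05 in edgeR's quasi-likelihood test, 0.0372% of those tested. Higher in cost1 were 6 of them (0.0319%): AT1G64795 and AT1G75945, which have no described product, the cell wall protein gene PELPK1, the phosphatidylinositol 4-kinase gamma-like gene AT5G24240, the suberin hydroxylase gene CYP86A1 and the glutamine synthetase gene GLN1;1. COST1 was the 1 gene called lower (0.00532%). At an unadjusted p under 0.05 there were 1637 genes (8.7%), 759 higher in cost1 (4.04%) and 878 lower (4.67%). All 3 cost1 libraries lay above all 3 WT libraries for 925 genes (4.92%) and below them for 1078 (5.73%). The median size of the difference over all genes was 0.18 on the log2 scale, 386 genes (2.05%) differed by more than 1, and the 95% interval of a gene's difference reached a median of 0.45 to either side. For the 12620 genes averaging at least 10 CPM, a count scaled to the library total, it reached 0.37. Most differences below about that size were therefore not detectable with 3 libraries a side. These intervals are unadjusted, and larger differences also missed the adjusted threshold, as for the glucosinolate gene CYP79B3 at -0.84 (adjusted p = 0.283 in edgeR).

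The count of calls rested on a few libraries. Without WT dehydrated replicate 1, WT dehydrated replicate 2 or cost1 dehydrated replicate 3, 0 genes were called, and without cost1 dehydrated replicate 2 there were 4 (COST1, AT1G64795, AT1G75945 and PELPK1). Leaving out cost1 control replicate 3, which is in the fit but not in the comparison, also gave 4 calls. At 0 calls, edgeR still gave 1703, 1332 and 1638 genes at an unadjusted p under 0.05 for those 3 libraries in that order. A fit of only the 6 dehydrated libraries called 0 genes, with 788 at an unadjusted p under 0.05. DESeq2 called 29 genes with all libraries, 23 higher and 6 lower, including all 7.

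COST1 itself checked the genotype labels. Its expected count was 189.8, 149.96 and 148 in the WT dehydrated libraries and 55.2, 61.2 and 58.3 in the cost1 dehydrated libraries, so that every cost1 library was below every WT library. In CPM the mean was 27.9 ± 3.54 (SD, n = 3) in WT and 9.97 ± 0.86 (SD, n = 3) in cost1, a 2.8-fold lower level (log2 difference -1.48, SE 0.17, edgeR adjusted p = 0.0110). In the control libraries, which share none with the dehydrated, the difference was -2.10 (adjusted p = 0.000683), from 171 to 216 in WT and 36.2 to 50.2 in cost1. Without WT dehydrated replicate 1, WT dehydrated replicate 2 or cost1 dehydrated replicate 3 the difference remained between -1.54 and -1.38 but the adjusted p in edgeR was 0.111, 0.0807 and 0.0734. In the fit of the 6 dehydrated libraries it was -1.47 with an adjusted p of 0.158. The values of COST1 were fractional in all 12 libraries, the annotation places AT2G45270 over it on the other strand, and the sources used here do not give the strand setting of the counting, so reads of COST1 and of that gene cannot be told apart. Of the 20 tested genes nearest to COST1, 10 on each side, 0 were called (lowest adjusted p = 0.524 in edgeR; 2 at an unadjusted p under 0.05), and their median difference was -0.02.

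AT1G64795 and AT1G75945 were all but silent in WT and present in every cost1 library. AT1G64795 had expected counts of 0, 0 and 1 in WT dehydrated and 27, 30 and 34 in cost1 dehydrated. The groups did not overlap, and the ratio of the summed counts was 90.8, with a 95% counting interval of 15.9 to 3627 (fitted log2 difference 6.07, adjusted p = 0.0110 in edgeR). AT1G75945 had 0 in every WT dehydrated library and 23, 14 and 22 in cost1 dehydrated. Against a floor of 3 counts over the WT group it was at least 19.6-fold higher (adjusted p = 0.0184 in edgeR). Both genes were also called in control, where AT1G64795 had 0 counts in WT and 18, 20 and 17 in cost1, and AT1G75945 had 1, 0 and 1 in WT and 31, 48 and 49 in cost1. The annotated gene AT1G64790 overlaps AT1G64795 on the opposite strand, so their reads cannot be told apart either. AT1G75945 overlaps no annotated gene.

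AT5G24240 encodes a protein resembling the gamma class of phosphatidylinositol 4-kinases, which phosphorylate a lipid of cell membranes. It had expected counts of 4, 2 and 10 in WT dehydrated and 90, 66 and 68 in cost1 dehydrated. The lowest cost1 library stood well clear of the highest WT library. The fitted change was 13.7-fold (log2 3.77, SE 0.49, adjusted p = 0.0197 in edgeR), and AT5G24230 overlaps it on the opposite strand. In control its counts were 2, 0 and 0 in WT and 12, 19 and 10 in cost1, a difference that was not called (adjusted p = 0.375).

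PELPK1, a gene for a proline-rich protein of the cell wall with repeated PELPK motifs, had expected counts of 23, 20 and 32 in WT dehydrated and 109, 198 and 124 in cost1 dehydrated. All cost1 libraries were above all WT libraries, and replicate 2 was the highest. Its mean was 4.31 ± 1.14 CPM (SD, n = 3) in WT and 24.9 ± 9.25 CPM (SD, n = 3) in cost1, 5.75-fold higher (log2 2.52, SE 0.29, adjusted p = 0.0110 in edgeR). Its neighbour and paralog PELPK2 (AT5G09520) had 2, 1 and 0 counts in WT and 16, 26 and 15 in cost1, a ratio of 19.0 with a 95% counting interval of 6.17 to 94.7. PELPK2 did not pass the adjusted threshold (adjusted p = 0.203 in edgeR). The counts given for the pair are whole numbers, but how similar the paralogs are and whether reads were shared between them was not tested.

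CYP86A1 makes omega-hydroxy fatty acids, the main aliphatic monomers of root suberin. It had 6, 5 and 10 counts in WT dehydrated and 40, 67 and 39 in cost1 dehydrated, with no overlap. Its level was 6.88-fold higher in cost1 (log2 2.78, SE 0.38, adjusted p = 0.0270 in edgeR), and without cost1 dehydrated replicate 2 the difference was 2.44. GLN1;1 (AT5G37600), a cytosolic glutamine synthetase that fixes ammonium into glutamine, had the highest level of the called genes. Its expected counts were 549, 587 and 664 in WT and 1022, 1086 and 1252 in cost1, and the groups did not overlap. GLN1;1 went from 103 ± 12 CPM (SD, n = 3) to 192 ± 19.1 CPM (SD, n = 3), a 1.86-fold rise (log2 0.90, SE 0.12, adjusted p = 0.0270 in edgeR). Over 21 other settings and left-out libraries CYP86A1 was called in 11 and GLN1;1 in 10, against 16 for COST1, AT1G64795 and PELPK1, 15 for AT1G75945 and 14 for AT5G24240. No difference of these 7 genes changed direction in any of the 21.

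**Figure D1:**
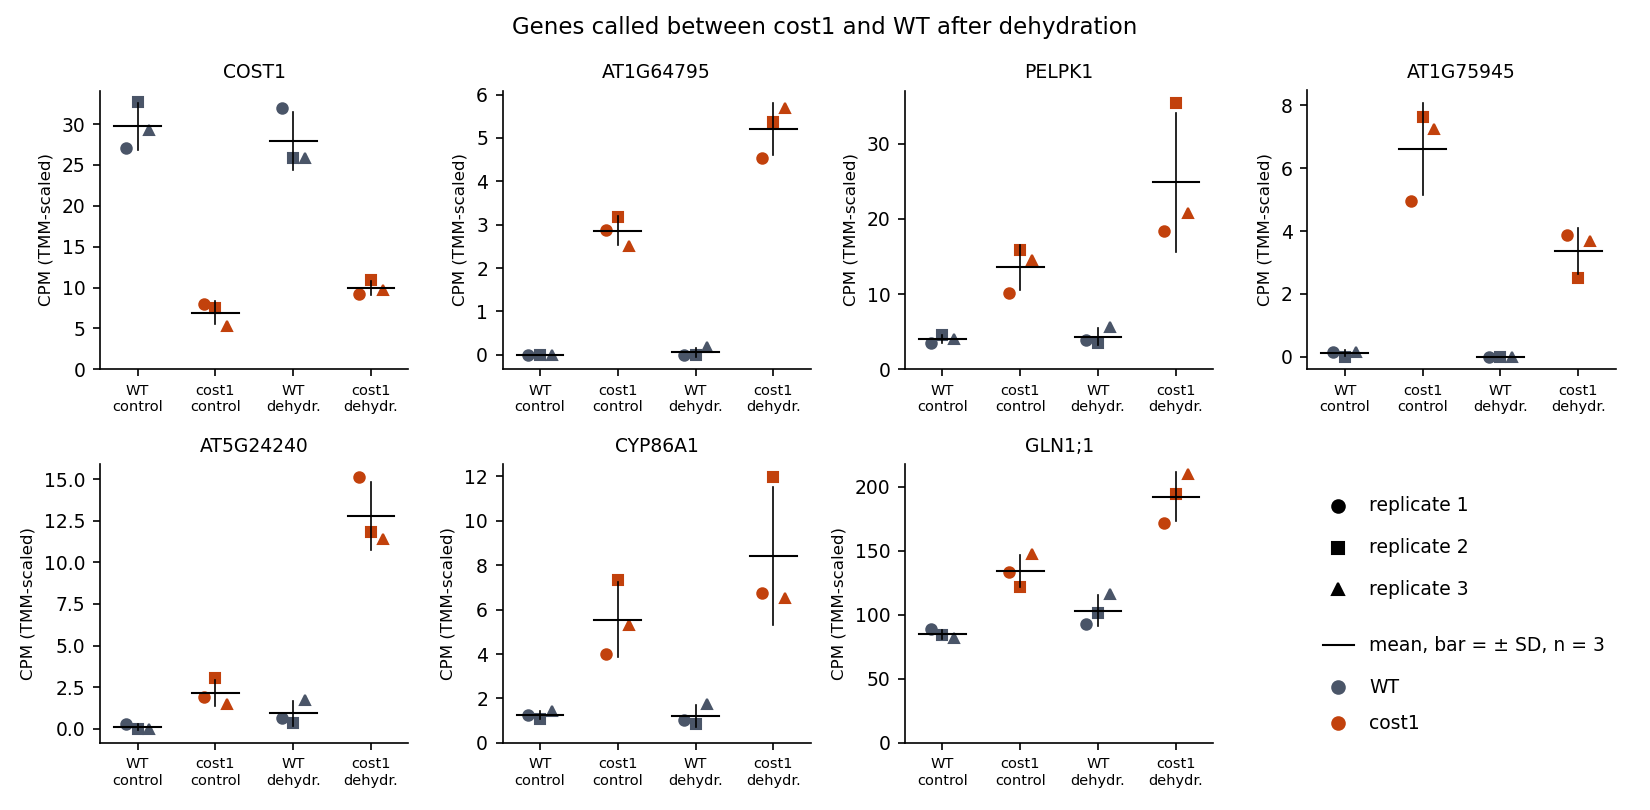
Level of the 7 called genes in each library, in CPM after TMM scaling, for WT (grey) and cost1 (orange), control and dehydrated. Horizontal lines are means and vertical bars ± SD (n = 3). All cost1 libraries lie below all WT libraries for COST1, and the other 6 genes are higher in every cost1 library of both treatments.

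The 10 uncalled genes with the smallest p had adjusted p-values of 0.0957 to 0.204 in edgeR, and all 10 were above WT in each cost1 dehydrated library. They included 2 GDSL-type esterase or lipase genes, a group of secreted enzymes that act on lipid esters. AT5G37690 had 2 counts in every WT library and 17, 33 and 20 in cost1, and AT1G74460 had 0, 0 and 4 in WT and 25, 31 and 17 in cost1. LAC5, a laccase that oxidises phenolics such as lignin units, had 1, 0 and 0 counts in WT and 25, 17 and 13 in cost1. The alpha/beta-hydrolase gene AT4G36610 had 4, 1 and 3 in WT and 17, 23 and 16 in cost1.

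ABCG6 and ASFT, an exporter and an acyltransferase of suberin synthesis, were also among these 10. ABCG6 had 8, 14 and 12 counts in WT dehydrated and 32, 45 and 46 in cost1 dehydrated (log2 1.84, SE 0.32, adjusted p = 0.130). ASFT had 43, 26 and 53 in WT and 102, 158 and 103 in cost1 (log2 1.58, SE 0.30, adjusted p = 0.204), and AT5G41050 overlaps it on the opposite strand. The pathogenesis-related gene PR4 had 294, 278 and 364 counts in WT and 572, 665 and 554 in cost1, or 1.91-fold. The glycine-rich protein gene AT4G33610 differed by 3.2 and the hydroxyproline-rich glycoprotein gene AT4G38080 by 1.40 on the log2 scale. AT4G38070 overlaps AT4G38080 on the same strand.

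The same direction was present without dehydration. All 16 of the genes above with higher levels in cost1 were also higher in cost1 control than in WT control, and for 15 of the 16 every cost1 control library was above every WT control library. Over all genes that held for 1462 of 18809 (7.77%), and the reverse for 1389 (7.38%). ABCG6 was the exception, with 3, 6 and 7 counts in WT control and 6, 7 and 8 in cost1 control. In control 893 of 18809 genes (4.75%) had an unadjusted p under 0.05 and 4 were called (0.0213%), COST1 and 3 higher in cost1 (0.0159%): AT1G64795, AT1G75945 and AT4G38080, the last with 13, 10 and 7 counts in WT and 41, 54 and 56 in cost1 (log2 2.31, adjusted p = 0.0270 in edgeR). A test of whether the genotype difference itself changed with dehydration called 0 of 18809 genes in edgeR (690 at an unadjusted p under 0.05, or 3.67%), and the lowest adjusted p among these 16 was 0.999. DESeq2 called 1 gene in that test, BAM5, a beta-amylase, at a log2 value of -2.15 (adjusted p = 0.0223). BAM5 had 13, 18 and 21 counts in WT control against 44, 68 and 54 in cost1 control, and 2396, 2702 and 4336 in WT dehydrated against 1816, 2200 and 2734 in cost1 dehydrated.

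Across genes, the difference after dehydration and the difference in control had r = 0.303 and rho = 0.229 (n = 18809). Genes of one plant are not independent replicates, so these describe the 2 sets of libraries. Of the 759 genes above WT at an unadjusted p under 0.05, 554 (73.0%) were also above it in control, against 51.2% of all genes. Of the 878 below WT, 668 (76.1%) were also below it in control, against 48.7% of all genes.

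**Figure D2:**
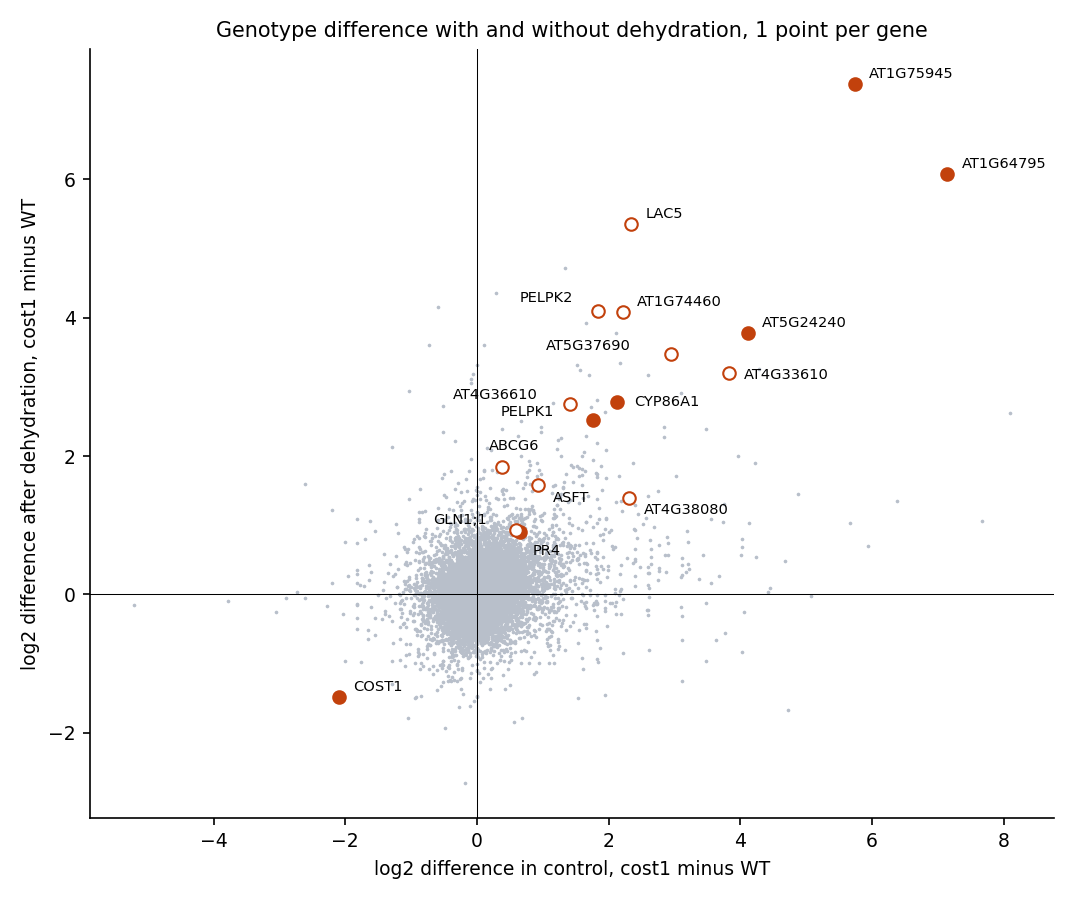
Genotype difference after dehydration (vertical) against that in control (horizontal), both log2 of cost1 over WT, with 1 point for each of the 18809 genes tested. Filled orange points are the 7 genes called after dehydration and open points the next 10 by p. The 16 genes above 0 on the vertical axis are also above 0 on the horizontal axis, and COST1 lies below 0 on both. The fitted values of AT1G64795 and AT1G75945 depend on the prior count.

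Genes of suberin and cuticle were described as a list of 22, of which 20 were tested. CYP86A1 was called (1 of 20, against 0.0372% of all genes), and 6 had an unadjusted p under 0.05 with no overlap between the genotypes, all above WT: CYP86A1, ABCG6, ASFT, GPAT5, CYP86B1 and ABCG20. For comparison, 4.92% of all genes had every cost1 library above every WT library, and 4.04% were higher at an unadjusted p under 0.05 in edgeR. No share is given for both together. GPAT5, the acyltransferase that joins suberin acids to glycerol, had 3, 1 and 5 counts in WT dehydrated and 10, 27 and 33 in cost1 dehydrated. CYP86B1, which hydroxylates very long acyl chains, had 1, 0 and 1 in WT and 15, 9 and 8 in cost1. The count filter can keep such a low gene through the group where it is high. The place of CYP86B1 in the counts of this list is therefore not read as a result. ABCG20, a transporter of the same group as ABCG6, had 39, 24 and 25 in WT and 40, 44 and 43 in cost1, so that its groups almost touched. The fatty alcohol enzyme gene FAR4 and the suberin regulator MYB41 were too low to test: FAR4 had 0, 2 and 0 counts in WT and 4, 7 and 6 in cost1, and MYB41 had 0, 1 and 0 in WT and 2, 6 and 2 in cost1.

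The list gave 0.17 for the wax exporter CER5, 0.22 for the elongase KCS6, 0.02 for the alkane synthesis partner CER3 and 0.09 for the regulator MYB96 on the log2 scale, with 95% intervals that all included 0. CER1, an alkane synthesis gene, was at 0.45 with an interval of -0.69 to 1.59, and the elongase gene KCS2 was at 0.61. ABCG2, a suberin transporter gene, was at 0.34 and FAR1, a fatty alcohol enzyme gene, at 0.24. The median over the 20 tested was 0.31, with 20 of 20 above 0, against 0.01 and 51.4% for all genes. Cost1 dehydrated replicate 2 was the highest library for 17 of the 20. Without it the median was 0.10 and 15 of 20 were above 0, while ABCG6 was at 1.74, ASFT at 1.3, GPAT5 at 2.76 and CYP86B1 at 3.86.

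**Figure D3:**
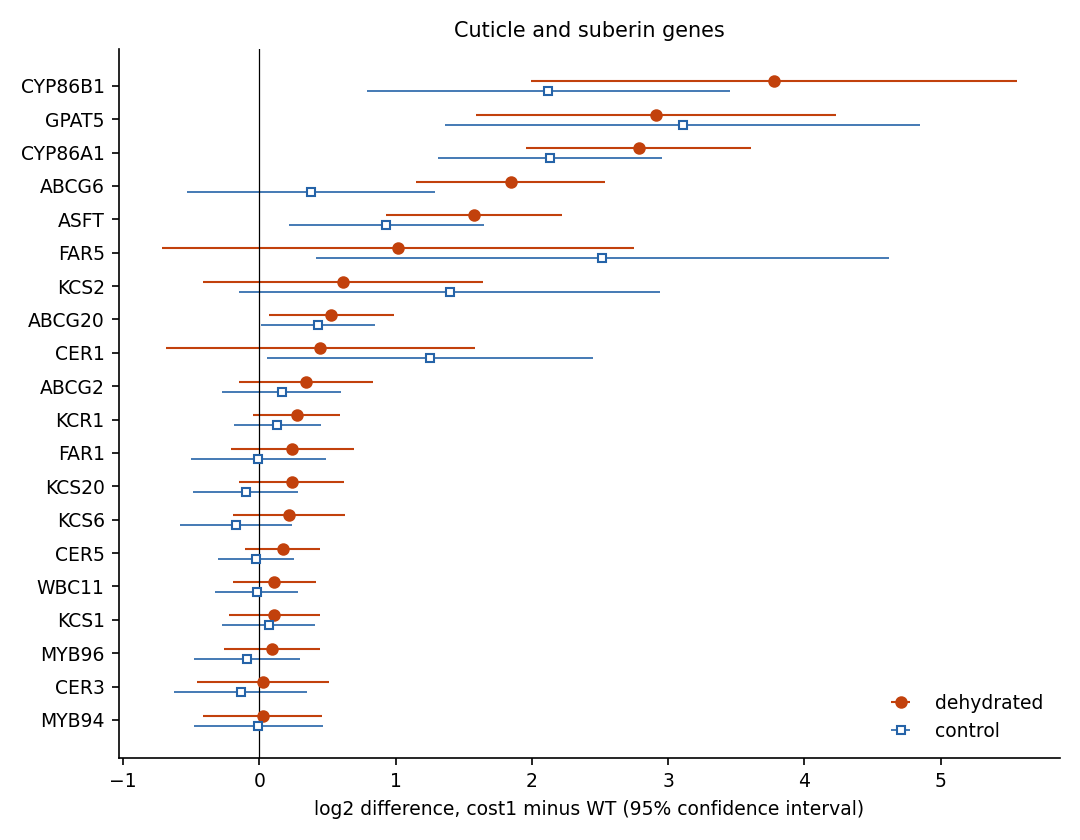
Log2 difference of cost1 over WT for the 20 tested cuticle and suberin genes, after dehydration (filled circles) and in control (open squares), with 95% confidence intervals. CYP86B1, GPAT5, CYP86A1, ABCG6 and ASFT stand at 1.58 or above after dehydration, and the intervals of CER3, MYB94 and MYB96 lie on both sides of 0.

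Suberin genes are known mainly from roots, so root content was read from 15 root cell markers. Of these 4 were tested: WOX5, SHR, GL2 and SCR, regulators of the root stem cell niche, the ground tissue and the root epidermis. None of the 4 was called, all were below WT (log2 -0.07 to -1.01), and their summed level was 74.3, 58.4 and 68.3 CPM in WT and 70.5, 51.9 and 54.3 in cost1. The other 11 markers reached at most 7 counts in any library. MYB36 and BRN1 were at 0 in all 6 dehydrated libraries, COBL9 had 1 count in each genotype, and of the Casparian strip genes of the endodermis CASP1 had 2, 0 and 1 in WT and 0, 2 and 7 in cost1, and CASP2 had 0, 0 and 1 in WT and 5, 1 and 3 in cost1. These libraries therefore hold few reads of the root markers listed. In such bulk samples fewer cells of a type and less RNA per cell cannot be told apart. What part root or wound tissue has in the suberin genes was not tested.

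No dehydration or ABA marker gene was called. Of 26 listed, 25 were tested, 4 had an unadjusted p under 0.05, all above WT (4.04% of all genes), and the libraries of the genotypes overlapped for all 25. RD29B had 542, 196 and 516 counts in WT dehydrated and 397, 3316 and 773 in cost1 dehydrated. RAB18, a dehydrin, had 543, 545 and 597 in WT and 385, 3398 and 1025 in cost1. The first cost1 library was below all 3 WT libraries for RAB18, and the second was far above them. LTI30, another dehydrin, had 384, 559 and 682 in WT and 550, 1572 and 1177 in cost1. COR413-PM1, a cold- and drought-regulated membrane protein gene, had 3129, 2185 and 2397 in WT and 2621, 4177 and 3913 in cost1. Their adjusted p-values were 0.529 to 0.552 in edgeR.

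The median of the 25 markers was 0.47, with 24 above 0, and cost1 dehydrated replicate 2 was the highest library for 22 of them. Without that library the median was 0.08, 16 of 25 were above 0, and RD29B went from 1.87 to 0.45 and RAB18 from 1.54 to 0.29. Summed over the list, the level was 14834, 16701 and 17037 CPM in WT and 12350, 29520 and 21728 in cost1, so that the cost1 libraries lay on both sides of the WT range. In control the same sum was 2206 to 2576 CPM over all 6 libraries.

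The rest of the ABA pathway gave 0 calls. All 8 tested clade A PP2C genes were above 0, with a median of 0.39, and replicate 2 of cost1 was highest for all 8. HAI3, a phosphatase gene strongly induced by ABA, had 11, 4 and 8 counts in WT and 18, 82 and 20 in cost1 (log2 2.39, adjusted p = 0.524 in edgeR). Without replicate 2 the PP2C median was 0.06 and HAI3 was at 1.26. The 9 tested receptor genes had a median of -0.10, which was 0.24 without WT dehydrated replicate 2 and 0.07 without WT dehydrated replicate 1, and PYL2 was at 0.94. Kinase and bZIP genes had a median of 0.29, and 0.04 without cost1 dehydrated replicate 2. SNRK2.7 had 76, 47 and 127 counts in WT and 70, 460 and 132 in cost1 (log2 1.43, and 0.24 without it). ABA synthesis and catabolism genes had a median of 0.15 over 11 genes, and -0.06 without the library. AAO3, which makes ABA from its aldehyde, had 373, 258 and 320 counts in WT and 362, 555 and 395 in cost1. The 11 stress and senescence NAC factors had a median of 0.24, and -0.04 without that library. NAP was at 0.54, and at 0.16 without it. The 6 DREB and CBF factors had a median of 0.23, and CBF2 was at 0.41.

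**Figure D4:**
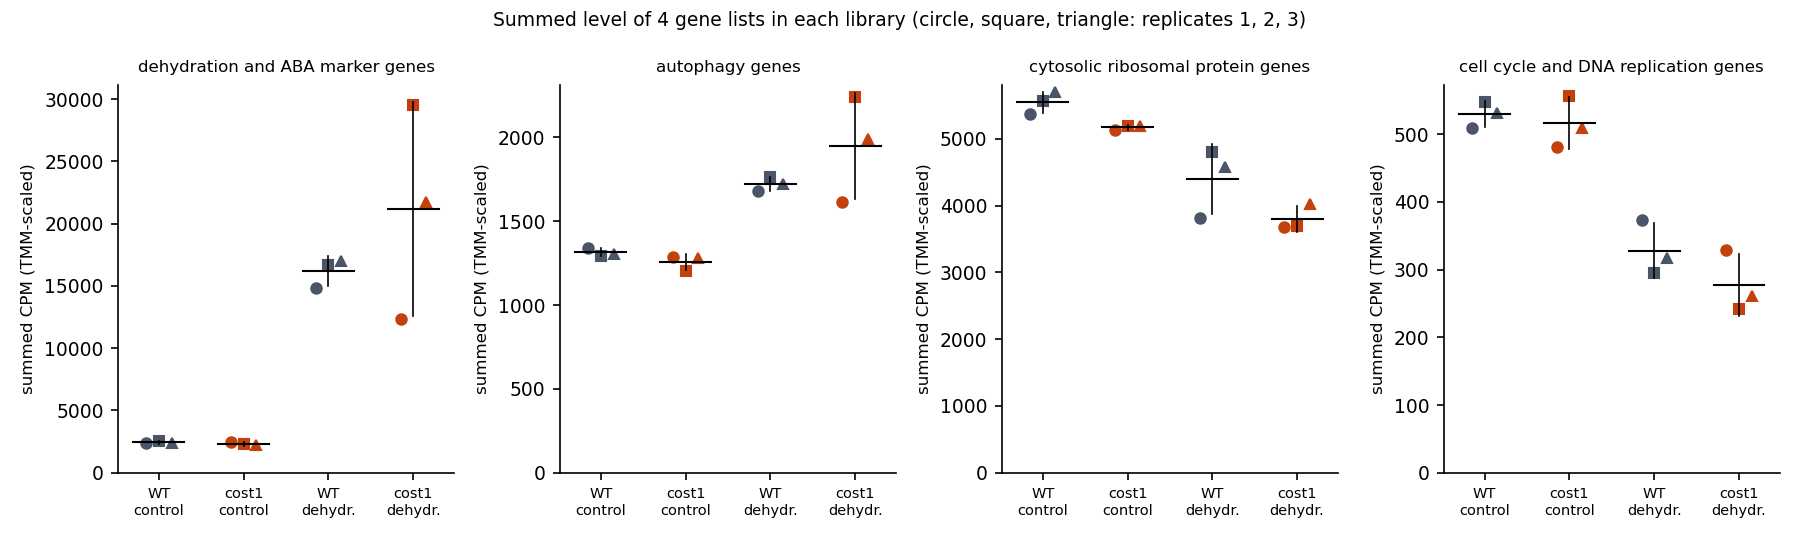
Summed level of 4 gene lists in each library, in CPM after TMM scaling, for WT (grey) and cost1 (orange). Circles, squares and triangles are replicates 1, 2 and 3, lines are means and vertical bars ± SD (n = 3). The 3 cost1 dehydrated libraries spread over 12350 to 29520 CPM for the dehydration markers, around the WT range of 14834 to 17037.

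Autophagy genes, the pathway named in the study's title, gave 0 calls among 44 tested of 45 listed. At an unadjusted p under 0.05 there were 8, all above WT, against 4.04% of all genes: ATG9, ATI2, ATG8I, ATG8B, ATG8A, ATG18F, ATG18A and ATG3. ATG9, a membrane protein that brings lipid to the growing vesicle, had 270, 194 and 222 counts in WT dehydrated and 269, 386 and 312 in cost1 dehydrated (log2 0.50, 95% interval 0.16 to 0.84, adjusted p = 0.524 in edgeR). ATG9 overlapped between the genotypes. ATI2, an ATG8-interacting protein of plants, had 224, 202 and 179 in WT and 266, 265 and 233 in cost1 (log2 0.34), without overlap. ATG8I had 148, 130 and 163 in WT and 172, 185 and 220 in cost1 (log2 0.38). ATG8B had 92.5, 90.07 and 75.4 in WT and 94.3, 140.5 and 123 in cost1 (log2 0.48). ATG8I, ATG8B and ATI2 were above WT in every cost1 library once scaled, and VPS38, a subunit of the phosphoinositide kinase complex, was the other such gene, 4 of 44 against 4.92% of all genes. ATG8A and ATG8B have fractional counts in 11 libraries, and how reads were divided among ATG8 copies is uncertain.

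Over the 44 genes the median difference was 0.13, with 36 above 0. Without cost1 dehydrated replicate 2 it was 0.07, with 29 above 0. In that fit 5 of the 44 had an unadjusted p under 0.05 in either direction, against 943 of 18809 genes. Summed over the list, autophagy genes stood at 1681, 1766 and 1721 CPM in WT and 1616, 2240 and 1988 in cost1, again with cost1 libraries on both sides of WT and in the same order as the dehydration markers. In control the median was -0.04 and 18 of 44 were above 0. The interaction called none of the 44. TOR and SnRK1, kinases that hold back or promote autophagy with nutrient and energy supply, had a median of 0.03 over 12 genes of their complexes (-0.06 without cost1 dehydrated replicate 2), and the SnRK1 catalytic subunit gene KIN10 was at 0.24 (0.08 without that library).

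Of 12 DUF641 genes including COST1, 8 were tested, and COST1 was the 1 called. AT4G34080 had 28.8, 37.3 and 20.9 counts in WT dehydrated and 11.8, 12.8 and 21.1 in cost1 dehydrated, which after scaling was 3.68 to 6.37 CPM in WT and 2.02 to 3.52 CPM in cost1 (log2 -0.92, adjusted p = 0.524 in edgeR). In control it stood the other way, at 1.78, 2.92 and 3.04 counts in WT and 5.81, 9.47 and 10.5 in cost1, and the interaction was not called (adjusted p = 0.999). Its counts were fractional in all 12 libraries. AT3G14870 was at -0.44 and AT1G53380 at -0.27, both with overlapping libraries. GIL1, known from the light response of hypocotyl growth, was at 0.02 with an interval of -0.34 to 0.37.

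No gene of cell division or of ribosomes was called, and the medians of both lists lay below 0. The 25 cell cycle and DNA replication genes had a median of -0.39, with 19 below 0. For 8 of the 25 every cost1 library was below every WT library, against 5.73% of all genes, and without cost1 dehydrated replicate 2 the median was -0.34. The median ranged from -0.50 to -0.21 as each dehydrated library was left out. KNOLLE, the syntaxin that fuses vesicles at the new cell plate, had 217, 195 and 207 counts in WT and 166, 117 and 155 in cost1 (log2 -0.50, SE 0.13, adjusted p = 0.487 in edgeR). AUR1, a mitotic kinase, was at -0.62, the B-type cyclin-dependent kinase CDKB1;2 at -0.91 and the cyclin CYCD3;1 at -0.50. The other way went 6 members of the list, among them ORC2 at 0.90, MCM6 at 0.28 and MCM2 at 0.26. In control the list's median was -0.03. All 20 cytosolic ribosomal protein genes were below 0, with a median of -0.22 (-0.10 in control, with 19 of 20 below 0). RPS6A, a ribosomal protein phosphorylated downstream of TOR, had 1344, 1697 and 1575 counts in WT and 1245, 1019 and 1243 in cost1.

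Photosynthesis genes, 40 in number, had a median of -0.12, with 34 below 0. Their summed level was 83966.5, 79309.3 and 60423.5 CPM in WT and 82049.2, 58106.3 and 54035 CPM in cost1, with overlap. GAPA, a chloroplast enzyme of carbon fixation, was at -0.38. In control 34 of the 40 were above 0. The stomatal list had a median of -0.13 over 16 genes, with 12 below 0 and none called, and -0.06 without cost1 dehydrated replicate 2. TMM, a receptor that spaces stomata, had 206, 183 and 166 counts in WT and 126, 123 and 129 in cost1 (log2 -0.55, SE 0.12, adjusted p = 0.307 in edgeR), and the polarity gene BASL was at -0.74. The potassium channel gene GORK of guard cells was at 0.81 and the kinase gene HT1 at 0.72, both above WT in every cost1 library. Other guard cell genes were at -0.37 (MYB60), -0.14 (KAT1) and -0.02 (SLAC1). Of the 16, 3 were above WT in every cost1 library and 3 below, against 4.92% and 5.73% of all genes. Unlike the median, the summed level was higher in cost1, at 2264, 2373 and 2117 CPM against 1940, 1906 and 2017 in WT. The shoot and leaf markers had a median of -0.11 over 10 genes (-0.03 without that library), with YAB1 at -0.38.

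Defence and secondary metabolism genes were mixed. CYP79B3, which makes indole-3-acetaldoxime for glucosinolates and camalexin, had 1119, 857 and 1176 counts in WT and 532, 544 and 696 in cost1, with no overlap (log2 -0.84, SE 0.17, adjusted p = 0.283 in edgeR), and DESeq2 called it. The 19 glucosinolate genes had a median of -0.25, and -0.08 without cost1 dehydrated replicate 2, but 0.10 without WT dehydrated replicate 1. The 24 jasmonate genes had a median of -0.12, which was -0.44 without cost1 dehydrated replicate 2 but 0.09 without WT dehydrated replicate 3 and 0.13 without cost1 dehydrated replicate 1. For AOS, the enzyme that starts the jasmonate branch, the difference was -0.54. The 23 salicylate and defence genes had a median of 0.43, and 0.16 without cost1 dehydrated replicate 2. SARD1, a regulator of salicylate synthesis, had 83, 59 and 71 counts in WT and 122, 193 and 73 in cost1 (log2 0.88, and 0.43 without that library). The 18 flavonoid genes had a median of 0.17, and -0.24 without it or -0.01 without WT dehydrated replicate 2. The flavonoid hydroxylase gene F3'H had 53, 16 and 63 counts in WT and 65, 220 and 32 in cost1. Its log2 difference was 1.29, and 0.11 without cost1 dehydrated replicate 2. The 16 ethylene genes had a median of 0.24, and 0.12 without that cost1 library.

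In the nitrogen list 1 of 14 tested was called, GLN1;1, against 0.0372% of all genes. NRT3.1, a partner of nitrate transporters, had 85, 77 and 130 counts in WT and 129, 243 and 181 in cost1 (log2 0.92, adjusted p = 0.487 in edgeR), and the chloroplast glutamine synthetase gene GLN2 was at -0.23. The 15 genes of the unfolded protein response, which adds chaperones to a strained endoplasmic reticulum, had a median of 0.17 with 14 above 0, and 0.16 without cost1 dehydrated replicate 2. IRE1A, a sensor of that response, had 337, 366 and 371 counts in WT and 396, 479 and 512 in cost1, without overlap (log2 0.37). The chaperone gene BIP3 had 15, 8 and 15 in WT and 22, 107 and 21 in cost1.

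Of 14 seed storage and embryo markers 4 were tested and 0 called, with a median of 2.35, and 1.91 without cost1 dehydrated replicate 2. In control the median was 2.98, with 4 of 4 above 0. The count filter can keep a low gene through the group where it is high, and it removed the other 10 markers. The size of these medians is therefore not read as a result. The seed protein gene EM1 had 12, 7 and 8 counts in WT and 12, 60 and 36 in cost1. The storage protein gene CRA1 had 9, 1 and 10 in WT and 22, 98 and 74 in cost1. Summed over the 4, the level was 6.40, 2.24 and 5.08 CPM in WT and 8.75, 41.5 and 25.8 in cost1, and the part that seed or embryo RNA has in the results was not tested.

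The 18 senescence genes had a median of 0.25, and 0.12 without cost1 dehydrated replicate 2. Among them NYE2, which helps degrade chlorophyll, had 13, 11 and 8 counts in WT and 23, 55 and 42 in cost1. Among 22 gibberellin and cytokinin genes the median was -0.00 (0.01 with DESeq2 size factors), and GA3OX1, the last enzyme towards active gibberellin, had 17, 9 and 12 counts in WT and 39, 20 and 26 in cost1. For the water channels (18 genes) the median was -0.14, with PIP2;8 at -0.58. The 10 genes of proline and raffinose metabolism had a median of 0.19 with 9 above 0, but -0.04 with 4 above 0 without cost1 dehydrated replicate 2, and GOLS2 went from 0.97 to 0.63. For trehalose and starch breakdown (18 genes, BAM5 at -0.49) the median was 0.03. For expansins and their partners (19 genes, EXPA1 at -0.44) it was 0.12. The expansin median was 0.32 without cost1 dehydrated replicate 2, -0.38 without cost1 dehydrated replicate 1 and -0.09 without WT dehydrated replicate 2. Medians were -0.05 for brassinosteroid genes (13) and 0.09 for auxin genes (18, IAA1 at 1.06). BKI1 of the brassinosteroid list was at -0.46, and at -0.24 without cost1 dehydrated replicate 2. Heat shock genes (16, HSP17.6II at -0.66) had a median of 0.05, and 0.25 without cost1 dehydrated replicate 2. With one or another dehydrated library left out, the medians of the gibberellin and cytokinin, starch, brassinosteroid, auxin and heat shock lists lay on both sides of 0, within -0.14 and 0.25. Circadian clock genes stood at 0.18 (19, with LNK1 at 0.74). The list of reactive oxygen enzymes stood at 0.15 (18). Its member ZAT10, a zinc finger factor and not an enzyme, was at 0.53. None of the genes of this paragraph was called. Over all lists, 3 of 602 tested loci were called (0.498%), CYP86A1, GLN1;1 and COST1, against 0.0372% of all genes, and the lists were chosen with earlier results known.

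**Figure D5:**
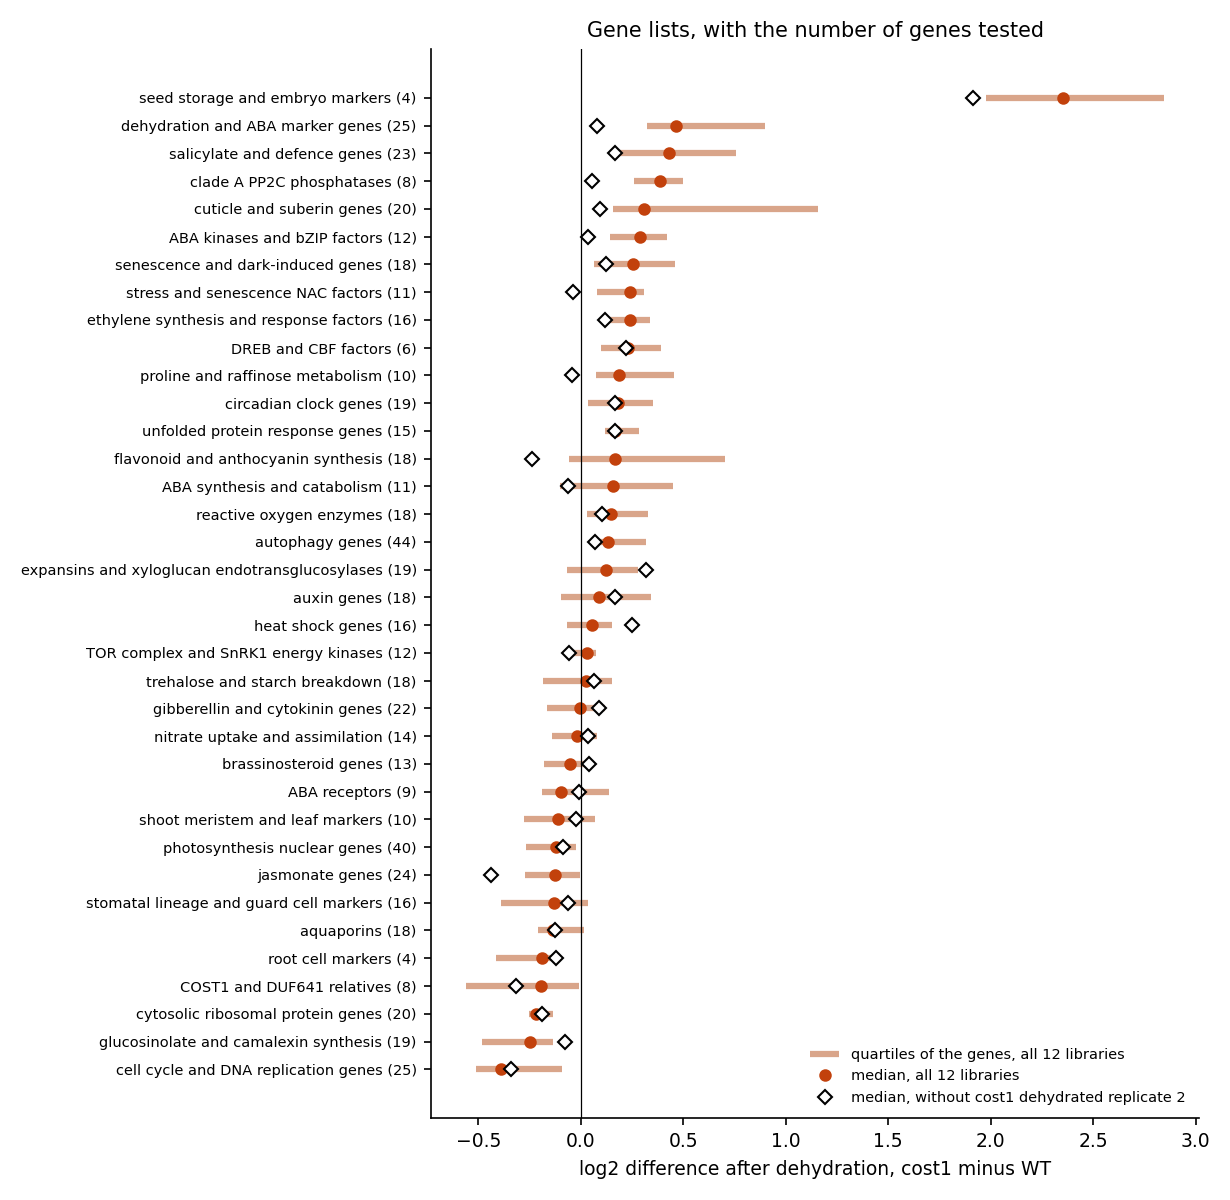
Median log2 difference of cost1 over WT after dehydration for each of the 36 gene lists, with the number of genes tested in brackets. Bars run from the lower to the upper quartile of the genes, filled circles are medians with all 12 libraries, and open diamonds are medians without cost1 dehydrated replicate 2. The dehydration markers move from 0.47 to 0.08, while the cell cycle genes stay at -0.39 and -0.34.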

How the data were processed

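Per the submitters' processing notes the tools were STAR 2.4.0, HTSeq 0.6.0 and DESeq2, and the genome TAIR10; the sources used here do not give the step each served. The deposited tables, one per library, list an expected count and an FPKM for each gene, per the file headers. The deposited expected counts are estimates, of which 8.57% lay over 0.005 from a whole number. The FPKM values were scaled to length and depth by the authors and served only alternatives. The read statistics were not used. Genes not listed were read as 0.

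Expected counts were rounded and tested in edgeR 4.0.16 (R 4.3.3). Of 24035 genes, filterByExpr over the 4 groups kept 18809. Libraries were TMM-scaled, and 1 quasi-likelihood fit of all 12 had 8 residual degrees of freedom. Benjamini-Hochberg adjustment ran over all tested genes, and adjusted p-values under 0.05 were called. Differences are log2 of cost1 over WT with the standard error from the F statistic, CPM values are TMM-scaled, and values per library are expected counts. Poisson intervals (95%) and floors (3 counts over the group) hold counting error alone, because without molecular identifiers reads are not independent molecules. Alternatives used limma 3.58.1 on log2(FPKM + 0.1) or log2(FPKM + 1), DESeq2 1.42.0, other scalings and filters, the 6 dehydrated libraries alone, a replicate block and each library left out. On the log2(FPKM + pseudocount) scale, changes of low genes are understated.

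The comparison and the 36 gene lists were chosen with earlier results of these data known. Named genes were COST1, all called genes, the next 10 by p, and the member of each list with the smallest p (4 for the dehydration, autophagy and DUF641 lists). Other list members, and BAM5 in the interaction, were chosen after their values were seen. For the ethylene list the named member is not reported here. List genes carry the symbols set in the lists, and other genes those of the TAIR10.1 annotation, in which 23831 loci were found. Of 670 list entries, 519 matched the annotation's symbol, 114 a synonym and 27 neither, and 10 were named by locus. No coordinates or sequences are given, since the build differs. Of the named genes, RAB18, AAO3, AT4G34080, ATG9, ATG8I, SARD1, KNOLLE and LNK1 also overlap an annotated gene on the opposite strand, and KIN10 and GAPA one on the same strand, so reads of such pairs cannot be told apart.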

Additional observations from a re-analysis of the deposited data

Results flagged for a closer look

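The seed storage protein gene CRC was too low to test in the comparison. Its expected count was 102 in cost1 control replicate 2 and 769 in cost1 control replicate 3, in libraries that served only as control, while WT control had 0, 1 and 0 and cost1 control replicate 1 had 2. After dehydration CRC had 0, 1 and 1 in WT and 0, 6 and 1 in cost1. This was flagged as a signal above the WT control level in libraries outside the dehydrated comparison, and its source was not tested.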

How the results depend on the processing

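COST1 and the 58 other genes named by rule kept their direction under the 21 alternatives. Other list members were not run through all of them, and some did change direction. Without cost1 dehydrated replicate 2, cuticle and suberin genes above 0 went from 20 to 15 of 20. The 7 calls became 29 in DESeq2, 11 with limma on log2(FPKM + 1) and 0 with only the 6 dehydrated libraries (788 at an unadjusted p under 0.05), and ranged from 0 to 8 as each library was left out. The same 7 genes were called under 2 other scalings, with no filter and with a stricter one. COST1 was -1.47 in the 6 libraries (adjusted p = 0.158) and ranged from -1.55 to -1.38 as each library was left out. List members called were 7 in DESeq2 and 0 in the 6 libraries, with 0 to 3 as libraries were left out. Of the named genes, DESeq2 called 1 in the interaction and 10 in control, where edgeR called 4 and leaving out each library gave 1 to 5. The cause of these shifts was not tested. With 3 libraries a side, intervals reaching a median of 0.45 to either side limit what could be detected.

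Replicate numbers do not pair the libraries: deviations of same-numbered WT and cost1 dehydrated libraries correlated at 0.407, -0.07 and -0.20. The libraries numbered 2 and 3 correlated best with another number. WT replicate 2 with cost1 replicate 3 gave 0.426, and WT replicate 3 with cost1 replicate 2 gave 0.305. That crossed pairing was not tested. With the replicate number as a block within treatment, 0 genes were called (1403 at an unadjusted p under 0.05), 0 list members, 0 named genes in control, and COST1 was -1.48 (adjusted p = 0.316).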
